A study of Mus musculus with 108 samples.

Results

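Voltage-gated sodium channel genes were compared among 6 inbred mouse strains within brain, heart, kidney, liver, lung and testis. The members were the 7 genes Scn1a, Scn3a, Scn8a, Scn7a, Scn2b, Scn3b and Scn4b, of 18194 genes with a probe set assigned to a single gene. For each gene the probe set with the highest mean log2 signal over all arrays was used, and for Scn2b all 3 probe sets were followed. The 7 genes had 19 such probe sets in all, and Scn4b had only 1.

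Sodium channels carry the inward current that starts the action potential of neurons and of heart and skeletal muscle cells. A large alpha subunit forms the pore and opens on depolarisation, and small beta subunits, each with a single membrane span and an immunoglobulin-like outer domain, bind to it and change its gating, surface level and adhesion to other cells. Scn1a, Scn3a and Scn8a encode alpha subunits of central neurons, Scn7a encodes an atypical relative that acts as a sodium sensor rather than a voltage-gated pore, and Scn2b, Scn3b and Scn4b encode beta subunits.

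The study measured RNA of whole organs from males of 11 to 14 weeks of the inbred strains AKR/J, A/J, C3HeB/FeJ, C57BL/6J, 129S2 and DBA2/J, with no treatment or engineered allele in the labels. For every strain there were 3 arrays per tissue (36 groups), titled as separate animals (22 animals in all), although the labelling protocol speaks of pools, so p-values measure the spread among these arrays. By source name, kidney arrays 129S2 3 and 129S2 4 share the animal number 3. Affymetrix probe set signals are given as log2 values after RMA, in which 1 unit is a doubling of signal. They have no absolute scale, so strains were compared within a tissue, and levels in different tissues are given only as percentiles within an array. A percentile also depends on the probes, so it is read between tissues for 1 gene and not between genes.

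In each tissue its own markers had a higher mean than those of any other tissue, on 18 of 18 arrays. In brain, arrays 129S2 2 and AKR/J 2 were nearer to each other than to their own strains (r = 0.583 across genes). Over 17 other genes that set the remaining 129S2 and AKR/J brain arrays at least 2 log2 units apart, 129S2 2 lay at a median of 79.7% of the way from 129S2 to AKR/J, and AKR/J 2 at 53.0%. The brain F tests of the members' brightest probe sets are therefore given with and without this pair of arrays. Tests between 2 strains in brain used all 18 arrays. The array of heart 129S2 3 correlated best with one of C57BL/6J (r = 0.32 across genes), and lung array C3HeB/FeJ 3 had a skeletal muscle marker mean of 9.65 where the other 17 lung arrays lay at or below 6.35.

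Brain held all of the members but Scn7a well above the low end of the signal range (plot of levels and strain differences). In brain the median percentile of the gene's signal within an array was 97.1 for Scn2b, 93.4 for Scn3b, 89.4 for Scn4b, 70.5 for Scn8a, 66.3 for Scn3a and 66.0 for Scn1a, against 28.8 for Scn7a. Lung was the tissue with the highest percentile for Scn7a, at 98.3, and Scn3b also stood high there at 93.5. Scn4b lay at 81.2 in heart and 68.6 in kidney, and Scn7a at 80.1 in heart. In liver no member had a median percentile above 33.5.

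**Figure D1:**
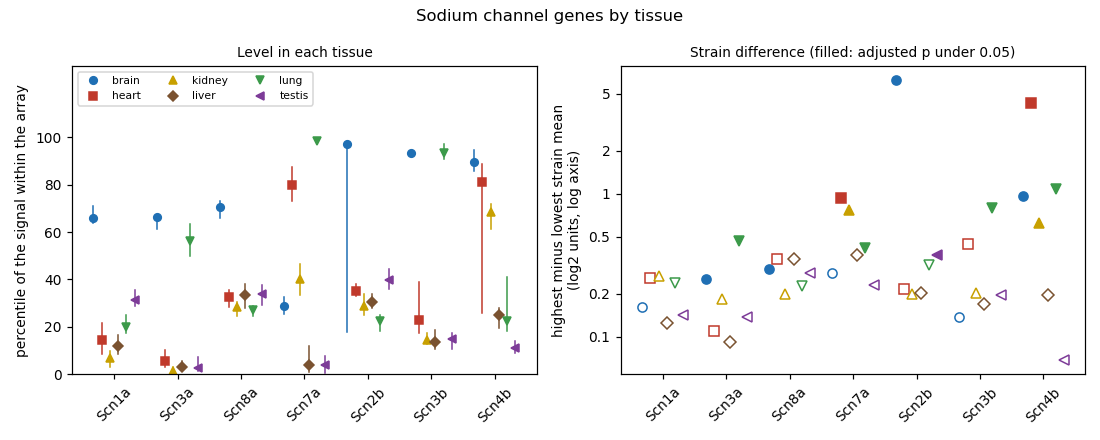
Left, percentile of each gene's signal among 18194 genes within an array, as the median (symbol) and range (line) over 18 arrays per tissue. Right, difference in log2 units between the highest and the lowest strain mean on a log axis, filled where limma's F test passed. Scn2b in brain (6.19) and Scn4b in heart (4.30) stand far above all other points.

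By limma's moderated F test among the 6 strains, adjusted by Benjamini-Hochberg over the 18194 genes and called under 0.05, 4 of 7 members passed in brain, where 23.1% of all genes passed. In lung 4 passed against 32.5% of all genes, and heart had 2 against 21.0%, kidney 2 against 46.1% and testis 1 against 40.5%. In liver 0 passed against 31.6%, although 1 had an unadjusted p under 0.05 in the same limma fit and the lowest adjusted p was 0.0594, for Scn7a. That makes 13 of 42 pairs of member and tissue. Strain means at least 1 log2 unit apart were rarer: only Scn2b in brain (1.64% of all genes passed at that size), Scn4b in heart (3.57%) and Scn4b in lung (5.21%) reached it. On these brightest probe sets no member did in kidney, liver or testis, where 5.07%, 5.66% and 4.09% of all genes passed at that size. The median strain difference of the members was 0.28 in brain, where that of all genes was 0.19, and 0.20 in kidney, where that of all genes was 0.28.

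Scn2b, a beta subunit that is linked to the alpha subunit by a disulphide bond and is abundant in central neurons, gave the widest strain difference of all genes tested in brain. Its promoter is shown beside that of Scn4b, because these neighbours on chromosome 9 gave the widest differences, each in another tissue. The sequences are the 250 bases before the gene start on the + strand, from RefSeq on GRCm38.p6, at chr9:45117626-45117875 for Scn2b and chr9:45138374-45138623 for Scn4b. Capitals mark matches on either strand to the letters CANNTG (E-box) in Scn2b and to CCAAT, here read as ATTGG on the printed strand, in Scn4b.
Scn2b: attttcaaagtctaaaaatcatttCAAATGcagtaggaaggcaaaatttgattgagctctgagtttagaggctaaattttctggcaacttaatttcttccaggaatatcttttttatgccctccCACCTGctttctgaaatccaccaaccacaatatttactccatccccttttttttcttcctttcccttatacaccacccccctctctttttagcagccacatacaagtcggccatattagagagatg
Scn4b: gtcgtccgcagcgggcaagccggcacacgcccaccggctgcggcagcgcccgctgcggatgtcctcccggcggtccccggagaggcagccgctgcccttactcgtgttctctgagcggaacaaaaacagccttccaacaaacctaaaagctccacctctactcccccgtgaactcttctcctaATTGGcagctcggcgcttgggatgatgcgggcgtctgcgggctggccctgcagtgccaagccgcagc
The Scn2b stretch held 38.4% G and C and 2 E-boxes, starting 226 and 126 bases before the start, and the Scn4b stretch 66.0% G and C and 1 CCAAT, 67 bases before the start. Over 32841 RefSeq promoters of the same length the median was 52.4%, 66.2% held CANNTG and 33.9% held CCAAT on either strand. TATAAA (12.4% of promoters) and GGGCGG (32.7%) matched neither stretch. A match here is a description of letters only, and this is reference sequence, not that of the other strains. Of the 7 members 5 had a promoter entry, all but Scn3a and Scn3b.

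On probe set 1430648_at, Scn2b in 129S2 brain read 5.85, 5.12 and 6.23 log2 units on animals 1, 2 and 3. In AKR/J brain the readings were 4.71, 6.12 and 5.62. The 12 arrays of C57BL/6J, A/J, DBA2/J and C3HeB/FeJ lay between 11.38 and 11.82, with a median of 11.57. The 6 arrays of 129S2 and AKR/J thus lay far under the other 12, with no overlap, and the 4 high strains were close together. The strain means were 5.48 ± 0.71 in AKR/J, 5.73 ± 0.56 in 129S2, 11.47 ± 0.10 in A/J, 11.55 ± 0.10 in C57BL/6J, 11.61 ± 0.08 in DBA2/J and 11.67 ± 0.16 in C3HeB/FeJ (SD, n = 3 each). The difference between the highest and lowest strain was 6.19 log2 units (limma adjusted p = 1.91e-12), rank 1 of 18194, and the 4 strains together averaged 5.97 log2 units above the other pair. All 90 arrays outside brain read 4.40 to 6.55 on this probe set, and the low strains lay within that range, so no fold is given. All 8 pairs that set 1 of the low strains against 1 of the high strains passed over genes and pairs, where 7.16% of all such tests passed, and no pair within the high or within the low strains did. Without arrays 129S2 2 and AKR/J 2 the difference was 6.51 (adjusted p = 2.53e-13).

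A second probe set for the same gene read otherwise. On 1436134_at the 6 arrays of 129S2 and AKR/J lay between 10.96 and 11.56 and the other 12 between 11.09 and 11.35, so the groups overlapped and their means were 0.0056 log2 units apart. Over all single-gene probe sets, where 21.8% passed in brain, limma's F test of 1436134_at gave a difference of 0.29 and an adjusted p of 0.171. The wide gap on 1430648_at was thus not seen on 1436134_at, where 129S2 was the highest strain, at 11.38, and AKR/J the lowest, at 11.09. The position of the probes in the transcript and the strains' sequences under them were not used here, and their part in the difference between probe sets was not tested.

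Without the pair of arrays that lay between strains, 1436134_at itself passed, with a difference of 0.53 (limma adjusted p = 0.000252). The highest strain was then 129S2, with readings of 11.43 and 11.56, and the lowest AKR/J, with 10.98 and 10.96. Arrays 129S2 2 and AKR/J 2 read 11.14 and 11.32 on this probe set. On the dimmest probe set, 1457144_at, the direction was opposite to that of 1430648_at. Its 6 readings in 129S2 and AKR/J, from 5.64 to 6.15, lay above the other 12, from 5.13 to 5.58, and its difference of 0.61 passed (limma adjusted p = 0.00106; 0.65 and 0.00256 without the pair).

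**Figure D2:**
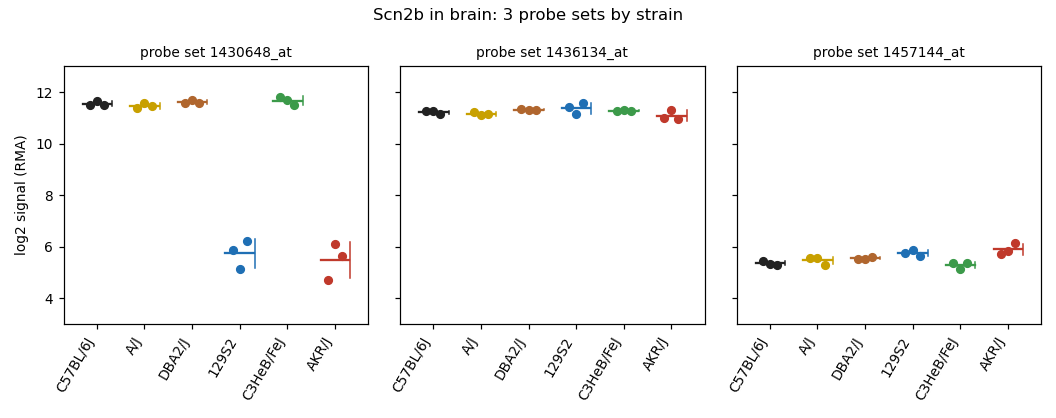
Log2 signal of the 3 Scn2b probe sets in brain, with 3 animals per strain as points, the strain mean as a bar and ± 1 SD as a thin line. On 1430648_at the 129S2 and AKR/J arrays lie between 4.71 and 6.23 and all others between 11.38 and 11.82, while on 1436134_at all 18 arrays lie between 10.96 and 11.56.

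Neuron markers overlapped between these strains. The mean of 6 of 6 neuron markers lay between 12.54 and 12.57 in 129S2, between 12.53 and 12.63 in AKR/J, and between 12.45 and 12.58 in the other strains. Of those markers 1 of 6 passed. In bulk tissue, fewer cells of a type and less RNA per cell cannot be told apart.

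The 3 genes whose centred strain means in brain were most like those of Scn2b over the 6 strains were Pcdhb9, Grik1 and Galc, with mean absolute differences from it of 1.64, 1.81 and 1.99 log2 units. Pcdhb9, a clustered protocadherin gene of neuronal cell surfaces, had strain means of 6.11 in 129S2 and 6.23 in AKR/J against 8.12 to 8.89 in the others. Grik1, a kainate-type glutamate receptor subunit, had 4.74 and 4.66 against 6.50 to 6.68. Galc, the lysosomal galactosylceramidase, was low in 129S2 at 5.64, but had 7.60 in AKR/J against 8.07 to 8.14 in the others. By limma's F test its adjusted p was 0.0101, against 1.64e-11 for Pcdhb9 and 4.76e-10 for Grik1. All these means kept arrays 129S2 2 and AKR/J 2, and values without that pair are not given here. No gene thus came within 1 log2 unit of the Scn2b pattern, and the first and the second shared its split of the strains at a smaller size.

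Outside brain, 1430648_at lay near or under the middle of the arrays, with median percentiles between 22.6 in lung and 39.9 in testis. It passed in testis only, where DBA2/J read 6.46, 6.55 and 6.43 and AKR/J 6.03, 6.03 and 6.27 log2 units. The DBA2/J arrays lay above the other 15, but narrowly, since C57BL/6J and C3HeB/FeJ arrays reached 6.42 and 6.37. The difference was 0.37 log2 units (limma adjusted p = 0.0308). The call ended without any 1 of DBA2/J 1, 2 or 3 or AKR/J 1 or 2 in testis (adjusted p up to 0.125), on the median of all probe sets (0.931) and in a fit over all arrays (0.406).

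By 1436134_at, Scn2b was higher in 129S2 than in the other strains in kidney and lung, at low signal. In kidney 129S2 read 4.87, 4.84 and 5.12 log2 units and the other 15 arrays 3.64 to 4.19. The 129S2 arrays were all above the rest, by 0.95 in the means, and the difference between the highest and lowest strain was 1.14 (limma adjusted p = 7.49e-08, where 41.5% of probe sets passed in kidney). In lung 129S2 read 5.26, 4.70 and 4.92 against 4.01 to 4.57 in the other 15 arrays, again with no overlap. The difference there was 0.84 (limma adjusted p = 0.00126, where 31.7% of probe sets passed). Neither 1430648_at nor 1457144_at passed in these tissues. In liver none of the 19 probe sets of the members passed, where 27.4% of all did.

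Scn4b, a beta subunit known for its part in resurgent current and abundant in striatal neurons and heart, was low in 129S2 heart. Its single probe set, 1434008_at, read 4.60, 5.01 and 4.51 log2 units in 129S2 heart on animals 1, 2 and 3. The A/J hearts read 8.81, 9.24 and 8.98, the AKR/J hearts 8.77, 8.84 and 9.17, and the DBA2/J hearts 8.46, 8.43 and 8.68. The C3HeB/FeJ hearts read 8.40, 8.01 and 8.51, and the C57BL/6J hearts 8.40, 7.74 and 7.97. All 3 hearts of 129S2 thus lay under all 15 others, and the gap to the nearest was several times the spread within any strain.

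The means of 129S2 and A/J heart were 4.71 ± 0.27 and 9.01 ± 0.21 log2 units (SD, n = 3 each), a difference of 4.30 (limma adjusted p = 4.96e-11) and rank 11 of 18194. The 5 other strains averaged 3.85 log2 units above 129S2, whose readings were close to the 3.94 to 4.47 of the liver and testis arrays, so no fold is given. All 5 pairs with 129S2 passed over genes and pairs (6.59% of all such tests passed in heart). Among the other strains 4 pairs passed as well: A/J and AKR/J were each above C57BL/6J and above C3HeB/FeJ, by 0.62 to 0.97, while DBA2/J did not pass against any of these. Without heart array 129S2 3, which was nearest to another strain, the difference was 4.20 (adjusted p = 1.26e-09).

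**Figure D3:**
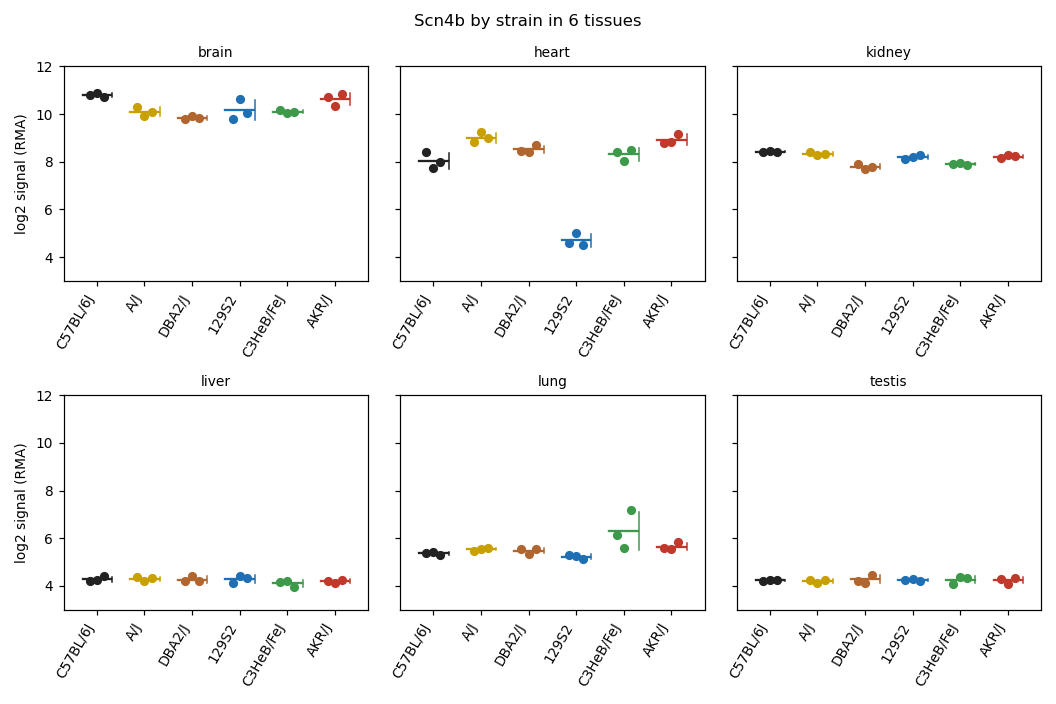
Log2 signal of Scn4b by strain in each tissue, with 3 animals per strain as points, the strain mean as a bar and ± 1 SD as a thin line. In heart the 129S2 arrays lie between 4.51 and 5.01 and the other 15 between 7.74 and 9.24, and in brain and kidney 129S2 lies within the range of the other strains.

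Heart samples differed in the signal of atrial markers, and these values stand beside the Scn4b result. The mean of 4 of 4 atrial markers ranged from 7.56 to 13.94 log2 units in 129S2, from 11.20 to 13.15 in A/J, 7.43 to 13.68 in AKR/J, 13.33 to 13.61 in C3HeB/FeJ, 6.21 to 13.31 in C57BL/6J and 7.13 to 8.76 in DBA2/J. On 129S2 hearts 1, 2 and 3 the atrial mean was 13.94, 13.69 and 7.56, beside Scn4b readings of 4.60, 5.01 and 4.51. On DBA2/J hearts 1, 2 and 3 it was 7.13, 8.76 and 7.18, beside 8.46, 8.43 and 8.68. The part of atrial cells in the Scn4b result was not tested. The mean of 6 of 6 cardiomyocyte markers lay between 13.66 and 14.01 in all strains, and 0 of 6 passed (limma; 1 had an unadjusted p under 0.05).

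The genes most like Scn4b in heart over the 6 strain means, by a rule added after the data were seen, were Plaat1, Plet1os and Stbd1, at mean absolute differences of 0.21, 0.38 and 0.47 log2 units. Plaat1, a phospholipase and acyltransferase gene, averaged 4.62 in 129S2 and 8.08 to 8.81 in the others. Plet1os, an antisense RNA gene, averaged 3.52 against 8.24 to 8.76. Stbd1, which encodes a glycogen-binding protein, averaged 3.83 against 6.00 to 7.05. For each of them 129S2 was the low strain.

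In brain 129S2 was not low for Scn4b. It read 9.81, 10.62 and 10.04 log2 units there, within the 9.77 to 10.89 of the other 15 arrays, and the mean of the other strains was 0.14 higher. The strains that stood out were C57BL/6J, with 10.78, 10.89 and 10.72, and AKR/J, with 10.73, 10.34 and 10.83. DBA2/J was the lowest, with 9.77, 9.91 and 9.83. The array 129S2 2, which lay towards AKR/J over other genes, was the only one of the remaining strains to reach the range of these 2 high strains.

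The difference of 0.96 between C57BL/6J and DBA2/J brain passed (limma adjusted p = 0.00146, and 1.21e-06 without 129S2 2 and AKR/J 2). By pairs, C57BL/6J was above A/J, DBA2/J, 129S2 and C3HeB/FeJ, and AKR/J was above A/J and DBA2/J. These tests by pairs kept 129S2 2 and AKR/J 2, which read 10.62 and 10.34. C57BL/6J and AKR/J did not pass against each other, nor did the 4 lower strains. Striatal markers (3 of 5 measured) had means from 9.68 to 9.76 in DBA2/J, 9.70 to 9.84 in C57BL/6J and 9.59 to 9.75 in AKR/J, within the 9.55 to 9.92 of all brains. Cerebellar markers (5 of 5 measured) lay between 5.59 and 5.80 except in A/J, at 5.72 to 6.35. Oligodendrocyte markers (4 of 5 measured, 2 of which passed) were lowest in DBA2/J, at 9.90 to 10.01, and highest in C57BL/6J, at 10.30 to 10.43, against 10.08 to 10.36 in the other strains. Markers of GABA neurons (4 of 4, 3 of which passed) went the other way, with 9.40 to 9.47 in DBA2/J, 9.20 to 9.26 in C57BL/6J and 9.21 to 9.39 in the others. The part of these regions and cells in the result was not tested.

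In kidney the low strains were DBA2/J, with 7.91, 7.69 and 7.79 log2 units, and C3HeB/FeJ, with 7.92, 7.93 and 7.84. The other 12 kidneys read 8.11 to 8.45, C57BL/6J highest at 8.39, 8.45 and 8.42. These 2 strains lay under the other 4 with no overlap, and the difference of 0.62 between C57BL/6J and DBA2/J passed (limma adjusted p = 2.64e-06). In all 10 of 15 pairs passed, where 18.5% of all such tests did in kidney, and DBA2/J and C3HeB/FeJ did not pass against each other. Kidney markers (4 of 5 measured, all of which passed) showed the same split: their mean was 13.65 to 13.74 in DBA2/J and 13.66 to 13.72 in C3HeB/FeJ, against 13.82 to 13.96 in the other strains. Their part in the result was not tested. The 129S2 kidneys, at 8.11, 8.21 and 8.28, were 0.07 above the mean of the others.

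In lung Scn4b was dim, and C3HeB/FeJ was the highest strain, with 6.14, 5.60 and 7.18 log2 units. The other 15 lungs read 5.11 to 5.84 and overlapped with C3HeB/FeJ 2. The difference from 129S2, the lowest strain, was 1.08 (limma adjusted p = 0.0321) and fell to 0.64 without C3HeB/FeJ 3 (adjusted p = 0.0100). The call ended without any 1 of C57BL/6J 4, 129S2 1, 2 or 3, or C3HeB/FeJ 1 (adjusted p up to 0.0628). Cardiomyocyte markers averaged 10.70, 10.09 and 11.59 on C3HeB/FeJ 1, 2 and 3, and between 7.97 and 10.14 in the other strains. The value of 10.14 was that of 129S2 3, the lung with the lowest Scn4b reading, 5.11. The 129S2 hearts themselves read only 4.51 to 5.01 for Scn4b. The part of cardiomyocytes in the lung result was not tested. In liver and testis Scn4b lay at median percentiles of 24.8 and 11.3, with strain differences of 0.20 and 0.07 (limma adjusted p = 0.451 and 0.984).

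Scn2b and Scn4b are next to each other on chromosome 9, and the nearest measured genes on both sides were followed in 129S2 (plot of 129S2 against the other strains along the chromosome). The 9 other genes were picked after their values were seen, so the counts below are a description and not a test. In kidney 3 of the 9 other genes had all 3 arrays of 129S2 above the other 15, where 3.06% of all genes did. They were Mpzl2, an adhesion protein gene of epithelia, Tmprss4, a membrane serine protease gene, and Fxyd6, a modulator gene of the sodium pump. Mpzl2 read 8.37 to 8.50 log2 units in 129S2 kidney against 6.53 to 7.24 elsewhere. Tmprss4 read 6.72 to 6.99 against 5.26 to 6.00, and Fxyd6 read 6.37 to 6.70 against 4.91 to 5.94.

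Together with 1436134_at of Scn2b these genes were high in the same strain and tissue, and Scn4b between them was not. Mpzl2 was also above all others in 129S2 liver (8.85 to 9.25 against 7.36 to 8.32; 1.37% of all genes there). In brain and heart 0 of the 9 genes had 129S2 below the rest, where 0.236% and 1.09% of all genes did, or above it (0.495% and 0.797%). None of the 9 shared the low readings of Scn4b in 129S2 heart, which is the usual outcome for 9 genes at a share of 1.09%. In brain this count could not find a gene with the Scn2b pattern. AKR/J was among the other 15 arrays, and Scn2b on 1430648_at itself overlapped with them. The brain count also needs array 129S2 2, which lay towards AKR/J over other genes. None of the 9 had 129S2 above the rest in lung (1.82%) or testis (2.61%), or below it in kidney (4.31%), liver (1.63%), lung (1.84%) or testis (1.99%).

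**Figure D4:**
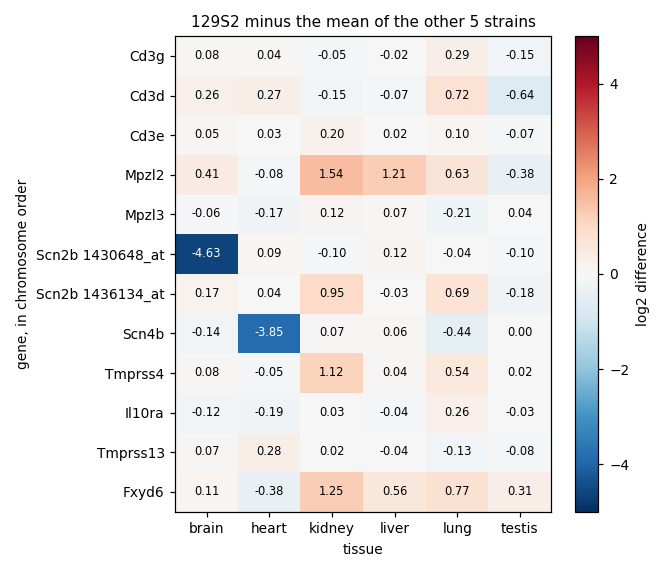
Log2 difference between 129S2 and the mean of the other 5 strains for Scn2b (2 probe sets), Scn4b and the nearest measured genes in chromosome order, in 6 tissues. The values of -4.63 for Scn2b 1430648_at in brain and -3.85 for Scn4b in heart stand alone in their columns, and the kidney column holds 1.54 for Mpzl2, 1.12 for Tmprss4 and 1.25 for Fxyd6.

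Among genes near Scn2b and Scn4b, the leading strain differed between genes and tissues. In heart Tmprss13, another serine protease gene, had strain means from 4.38 in C57BL/6J to 6.35 in AKR/J (difference 1.96, limma adjusted p = 7.29e-06), and Fxyd6 from 7.40 in AKR/J to 8.60 in C3HeB/FeJ (1.20, 0.000115). In testis Cd3d, a T cell receptor chain gene, differed by 1.86 between DBA2/J and C57BL/6J, Fxyd2 by 1.16 between C57BL/6J and 129S2, and Fxyd6 by 1.03 between AKR/J and DBA2/J (all passed). In lung Cd3d (1.17), Mpzl2 (1.17) and Fxyd6 (1.25) passed, each with 129S2 highest.

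Scn3b, a beta subunit that binds the alpha subunit without a disulphide bond, differed among strains in lung. On 1435767_at the C3HeB/FeJ lungs read 11.91, 11.77 and 11.41 log2 units and the A/J lungs 11.54, 11.52 and 11.47. The other 12 lungs read 10.74 to 11.24, so both strains lay above the other 4 with no overlap (plot of lung values). The means were 11.70 ± 0.26 in C3HeB/FeJ and 11.51 ± 0.03 in A/J against 10.91 ± 0.15 in C57BL/6J, the lowest (SD, n = 3 each).

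That difference of 0.79 log2 units passed (limma adjusted p = 0.000120), and rose to 0.93 without C3HeB/FeJ 3 (5.38e-06). All 8 pairs of 1 high and 1 low strain passed, where 11.4% of all such tests did in lung, and A/J against C3HeB/FeJ did not. The second probe set, 1426328_a_at, gave the same split: 9.02 to 9.58 in A/J and C3HeB/FeJ against 8.28 to 8.89, a difference of 0.99 (adjusted p = 2.53e-05). Neuron markers (6 of 6) averaged 6.14 to 6.52 in C3HeB/FeJ and 5.75 to 6.52 in A/J lung, against 5.75 to 6.07 in the others. Markers of peripheral neurons and chromaffin cells (5 of 5) averaged 5.59 to 5.81 in A/J and 5.61 to 5.78 in C3HeB/FeJ, against 5.37 to 5.76. The part of these cells in the result was not tested.

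**Figure D5:**
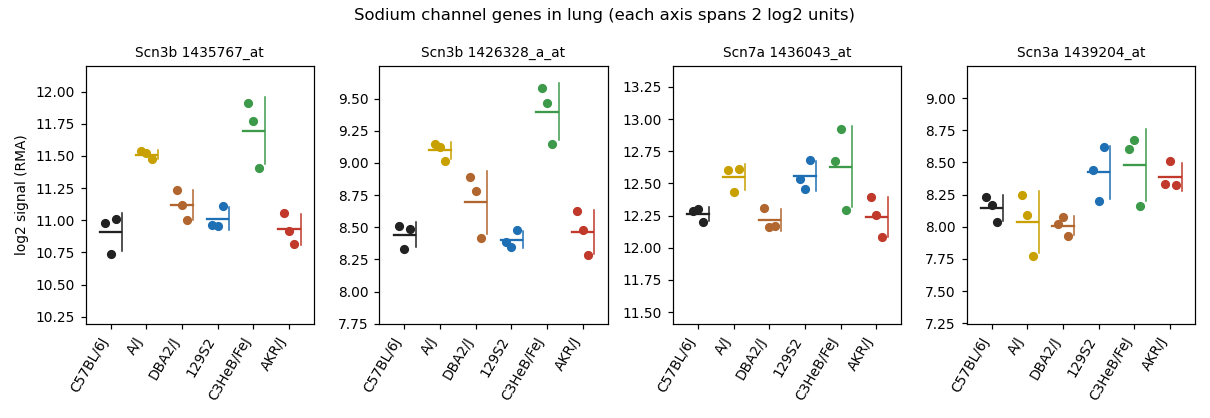
Log2 signal in lung of both Scn3b probe sets, Scn7a and Scn3a by strain, with 3 animals per strain as points, the mean as a bar and ± 1 SD as a thin line, each axis spanning 2 log2 units. For Scn3b all A/J and C3HeB/FeJ arrays lie above the other 12 on both probe sets, while for Scn7a and Scn3a the strains overlap.

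In brain, where it was as high within the array as in lung, Scn3b read 10.53 to 10.75 on all 18 arrays. Its difference of 0.14 did not pass (limma adjusted p = 0.125, and 0.0999 without 129S2 2 and AKR/J 2). On 1426328_a_at it passed only without that pair (0.20, adjusted p = 0.0384). In heart, kidney, liver and testis its median percentiles lay between 13.5 and 23.0, and it did not pass on 1435767_at. In kidney the dimmer 1426328_a_at passed at a low level (4.04 in 129S2, 3.70 in DBA2/J, difference 0.33, limma adjusted p = 0.0106).

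Of the alpha subunit genes, Scn1a, the main sodium channel gene of inhibitory interneurons, passed in no tissue. In brain it read 8.27 to 8.68 log2 units with a difference of 0.16 (limma adjusted p = 0.621, and 0.599 without 129S2 2 and AKR/J 2). Another probe set, 1450121_at, had strain means from 10.08 in C57BL/6J to 10.31 in 129S2, and its difference of 0.24 did not pass over all probe sets (adjusted p = 0.0834, and 0.0765 without the pair).

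Scn3a, an alpha subunit gene best known from embryonic and newborn brain, was lower in AKR/J brain. AKR/J read 8.22, 8.25 and 8.10 log2 units, and the other 15 brains 8.35 to 8.50. The AKR/J arrays, AKR/J 2 among them, were thus all under the rest, but the step was small. The difference from A/J was 0.25 (limma adjusted p = 0.00382, and 0.29 and 0.00564 without 129S2 2 and AKR/J 2), all 5 pairs with AKR/J passed and no other pair did. On the median of its 2 probe sets the difference was 0.13 (adjusted p = 0.0553), and in a fit over all arrays the adjusted p was 0.288.

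Scn8a, the alpha subunit gene of nodes of Ranvier and axon initial segments, differed by 0.30 log2 units in brain. C3HeB/FeJ read 8.80, 8.77 and 8.80, and A/J read 8.53, 8.40 and 8.55, with DBA2/J close at 8.55, 8.51 and 8.59. C3HeB/FeJ lay above both of these without overlap (limma adjusted p = 0.00749, and 0.00818 without 129S2 2 and AKR/J 2). Its pairs with A/J and DBA2/J passed, as did C57BL/6J over A/J. None of the other 4 probe sets of Scn8a passed in brain (adjusted p from 0.185 to 0.631), and the call ended on the median of the probe sets (0.168) and in the fit over all arrays (0.0945). In brain some of these were brighter than the set used, 1439889_at. Strain means were 10.46 to 10.68 on 1423515_at, 9.36 to 9.52 on 1457412_at and 8.96 to 9.20 on 1451894_a_at. In testis the probe set 1423515_at passed, with DBA2/J at 5.48, 5.65 and 5.50 and 129S2 at 6.22, 6.24 and 6.12 (difference 0.65, limma adjusted p = 0.00645, where 33.0% of probe sets passed), while the brightest set did not (0.183).

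In lung Scn3a had a median percentile of 56.2. C3HeB/FeJ read 8.61, 8.67 and 8.16 log2 units and DBA2/J, the lowest strain, 8.02, 8.07 and 7.93. The difference of 0.47 passed (limma adjusted p = 0.0369), only the pair of C3HeB/FeJ and DBA2/J passed, and the strains otherwise overlapped. Without C3HeB/FeJ 3 the difference was 0.63 (0.00415). The call ended without any 1 of 13 lung arrays, C57BL/6J 3 and 4, A/J 2, DBA2/J 1, 2 and 3, 129S2 1 and 3, C3HeB/FeJ 1 and 2 and AKR/J 1, 2 and 3 (adjusted p up to 0.0738), and on the median of the probe sets (0.0767).

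Scn7a, the sodium sensor relative known from glia, Schwann cells and lung, differed among strains in heart, kidney and lung. In heart C3HeB/FeJ read 8.72, 9.11 and 8.70 log2 units on 1436043_at and the other 15 hearts 7.77 to 8.62, so C3HeB/FeJ was above the rest. C57BL/6J was the lowest, with 7.77, 8.16 and 7.81. The difference of 0.93 passed (limma adjusted p = 0.0121), as did the pairs of C3HeB/FeJ with C57BL/6J and A/J. On the other probe sets C3HeB/FeJ was again highest and C57BL/6J lowest, at differences of 0.82 on 1436044_at and 0.39 on 1427495_at, but neither passed (adjusted p = 0.125 and 0.418, where 19.2% of probe sets passed in heart). The call ended on the median of the probe sets (0.132).

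Markers of other heart cells stood beside this result. Fibroblast markers (4 of 4) averaged 10.78 to 10.90 in C3HeB/FeJ, 9.64 to 10.47 in C57BL/6J and 9.90 to 10.83 in the others, and 2 of 4 passed. Atrial markers averaged 13.33 to 13.61 in C3HeB/FeJ, and Schwann cell markers (2 of 5 measured) averaged 5.69 to 5.77 there and 5.46 to 5.81 in C57BL/6J. Their part in the difference was not tested.

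In kidney C57BL/6J read 6.62, 6.48 and 6.61 log2 units for Scn7a and the other 15 kidneys 5.52 to 6.29. C57BL/6J was thus above all others, here on different animals (10, 11 and 12) from those of its heart and lung. The difference from DBA2/J was 0.77 (limma adjusted p = 0.00149), and all 5 pairs with C57BL/6J passed and no other. On 1436044_at C57BL/6J was also the highest strain (difference 0.44, adjusted p = 0.0122), although the ranges, 6.02 to 6.31 and 5.61 to 6.06, overlapped. On the median of the probe sets the difference was 0.48 (0.0133). Fibroblast markers (4 of 4, all of which passed) averaged 8.45 to 8.60 in C57BL/6J kidney and 8.59 to 8.67 in AKR/J, against 7.71 to 8.19 in the other strains. Smooth muscle markers (5 of 5, 4 of which passed) were highest in C57BL/6J, with a mean of 8.08 against strain means of 7.73 to 7.92 in the others. The part of these cells in the Scn7a result was not tested.

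In lung, where Scn7a stood near the top of the array, C3HeB/FeJ read 12.67, 12.92 and 12.29 log2 units and DBA2/J 12.31, 12.16 and 12.17. The difference of 0.42 passed (limma adjusted p = 0.0305), with the ranges of most strains overlapping and only the pair of C3HeB/FeJ and DBA2/J passing. Both other probe sets passed as well, with 129S2 highest and DBA2/J lowest (differences 0.45 and 0.52, adjusted p = 0.0152 and 0.0331). Without C3HeB/FeJ 3 the difference was 0.58 (0.00101) and without C3HeB/FeJ 2 it was 0.27 (0.0263). The call ended without any 1 of C57BL/6J 4, A/J 1 or 3, DBA2/J 2 or 3, 129S2 3, C3HeB/FeJ 1 or AKR/J 2 (adjusted p up to 0.0629). Fibroblast markers (4 of 4, all of which passed) averaged 11.09 to 11.67 in C3HeB/FeJ lung, against 10.27 to 11.19 in the other strains. Schwann cell markers (2 of 5 measured, 1 of which passed) averaged 5.88 to 7.01 against 5.67 to 6.08, and adipocyte markers (3 of 4 measured, 2 of which passed) had a mean of 7.79 against strain means of 5.88 to 6.75. Their part in the lung results of Scn3a, Scn3b and Scn7a, in which C3HeB/FeJ was the highest strain, was not tested.

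In brain, at a low level, 1436044_at read 5.79, 5.61 and 5.85 in C57BL/6J and 5.19 to 5.64 in the other 15 arrays, with a narrow overlap. That difference of 0.45 passed over all probe sets (limma adjusted p = 0.00239), whereas 1436043_at, with C57BL/6J also highest, did not (0.28, adjusted p = 0.164). On the median of the probe sets the difference was 0.40 and passed (0.00309). Without 129S2 2 and AKR/J 2 the difference on 1436044_at was 0.46 (0.00604) and that on 1436043_at 0.29 (0.259). On 1427495_at C57BL/6J was instead the lowest strain in brain, at 5.02 against 5.25 in DBA2/J, and in kidney AKR/J was the highest, at 5.35, and neither difference passed (adjusted p = 0.141 and 0.0635). On the brightest probe set C57BL/6J was thus the highest strain for Scn7a in kidney, where it passed, and the lowest in heart.

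Of 8 other sodium channel genes listed, 5 were measured: Scn2a, Scn9a, Scn10a, Scn11a and the leak channel gene Nalcn. None passed outside testis by limma's F test (0 of 5 with an unadjusted p under 0.05 in brain, kidney and liver, 1 in heart and 3 in lung). In brain Scn2a, the alpha subunit gene of excitatory neurons, had strain means between 11.25 and 11.44 (limma adjusted p = 0.356), and Nalcn between 9.61 and 9.75 (0.310). Without 129S2 2 and AKR/J 2 these were 0.301 and 0.280, and again 0 of 5 passed. In testis Scn10a, known from sensory neurons, passed with means from 4.41 in 129S2 to 5.42 in A/J (difference 1.01, adjusted p = 1.11e-05), and Scn9a passed at a difference of 0.22 (0.0454).

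Partners of the channels (21 of 23 measured), which anchor, cluster, inactivate or degrade them, passed in testis (9 of 21), kidney (8), lung (7), brain (6), heart (5) and liver (4). These shares are read against the percentages of all genes given above. In brain the widest were Rangrf, a trafficking factor of the heart channel (0.47), the axonal adhesion gene Cntn2 (0.33) and Kcnq3, a potassium channel of the initial segment (0.27). Without 129S2 2 and AKR/J 2 these passed at the same differences, and 7 of 21 partners passed in brain. In heart Fgf13, which encodes an intracellular modulator of channel inactivation, averaged 7.90 ± 0.13 log2 units in C3HeB/FeJ and 9.89 to 10.16 in the other 5 strains (difference 2.26, limma adjusted p = 1.64e-09). The 129S2 hearts, low for Scn4b, averaged 10.00 ± 0.31 for Fgf13 (SD, n = 3). Gpd1l, a regulator of the heart channel, differed by 0.79, with 129S2 lowest at 9.17, and Bace1, the protease that cleaves beta subunits, by 0.63, again with 129S2 lowest at 7.41 (both passed).

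Of 7 adhesion partners measured (Cntn1, Cntn2, Cntnap1, Cntnap2, Nfasc, Nrcam and L1cam), 4 passed in brain, 4 in lung, 3 in testis, 2 in kidney and 0 in heart and liver. Cntn1, a contactin that binds beta subunits, had strain means from 6.04 in AKR/J to 10.01 in 129S2 in lung (difference 3.97, limma adjusted p = 1.08e-07). In testis it went from 5.43 in C3HeB/FeJ to 8.49 in C57BL/6J (3.06, 3.52e-14), and in kidney from 5.11 in DBA2/J to 6.19 in 129S2 (1.08, 8.97e-06). In lung Cntnap2 (2.38) and Nrcam (2.11) passed too, with 129S2 lowest for the first and C57BL/6J for the second. Gpd1l and the scaffold gene Ank2 were among the widest in kidney (0.92 and 0.70), Gpd1l, Ank3 and the ubiquitin ligase gene Nedd4l in liver (1.38, 1.18 and 0.91), and Sptbn4 and Nrcam in testis (0.77 and 0.60).

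Around the other members, 5 measured genes on each side gave 51 distinct neighbours of the 7 members, of which 23 passed in kidney (45.1%, against 46.1% of all genes), 22 in lung (43.1% against 32.5%), 18 in heart (35.3% against 21.0%), 17 in liver (33.3% against 31.6%), 16 in testis (31.4% against 40.5%) and 14 in brain (27.5% against 23.1%). On chromosome 2, where Scn1a, Scn3a and Scn7a lie with Scn2a and Scn9a, the glycosyltransferase gene B3galt1 differed by 1.08 log2 units in brain (limma adjusted p = 0.000749, and 1.29 and 5.01e-06 without 129S2 2 and AKR/J 2) and 2.07 in liver (5.48e-05), with 129S2 lowest in both. Cers6, a ceramide synthase gene near Scn7a, differed by 1.16 in heart, highest in C3HeB/FeJ and lowest in C57BL/6J like Scn7a, and by 1.31 in liver. Near Scn3a, Gca and Fign differed by 1.09 and 1.02 in liver, and near Scn8a on chromosome 15 the elastase gene Cela1 by 1.80 in liver. Near Scn3b the adhesion gene Clmp was highest in C3HeB/FeJ lung and lowest in C57BL/6J lung, like Scn3b, by 1.70 (adjusted p = 5.30e-08).

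Whether the strain differences depended on the tissue was tested over all arrays, with the animal as a random block. The interaction passed for Scn2b (limma adjusted p = 8.04e-51), Scn4b (6.21e-31), Scn7a (6.81e-07), Scn3b (9.42e-05), Scn8a (0.000298) and Scn3a (0.00159), and not for Scn1a (0.494). Of all genes 72.5% passed this test, so passing it does not set the members apart.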

How the data were processed

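Arrays of 6 tissues from 6 strains, 3 males each, were assigned to groups by their titles. In 4 titles the animal number differs from the source name (3 are the 129S2 brain arrays) and the title was used. The remaining title is 129S2 kidney 4, whose source name gives 3, also the number of 129S2 kidney 3. The authors deposited log2 signals of 45101 probe sets after RMA (per the submitters' processing notes, which name no version). The sources used here do not give whether RMA was run on all tissues at once. Control probe sets (64), those assigned to several genes (932) and those with no listed gene (9160) were left out, which left 34945. Names and gene order came from RefSeq on GRCm38.p6, and 34741 probe sets matched by gene ID. The arrays' number limits precision.

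Strains were compared within a tissue with limma 3.58.1 in R 4.3.3 (1 mean per strain, default prior, Benjamini-Hochberg over genes, or over genes and 15 pairs). The code was tested on simulated data. The interaction fit used all arrays with the animal as a random block (correlation 0.0194 over 2000 genes). Percentiles were taken over genes. Marker values are means of log2 over a list. Figures were drawn with matplotlib 3.10.9.

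Members and lists were chosen with earlier results of these data known. Named beside the members were each measured gene of the other sodium channel genes, the 3 partners with the widest passing difference per tissue, neighbours (5 on each side) that passed at 1 log2 unit or more, and the 3 genes most like Scn2b in brain. The 9 genes around Scn2b in 129S2, and the genes most like Scn4b in heart, were picked after their values were seen. Alternatives were quantile normalization, equal array medians, genes of mean log2 of at least 6, an intensity trend with a robust prior, the median of a gene's probe sets, all arrays in 1 fit, a replicate block and each array left out.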

Additional observations from a re-analysis of the deposited data

Results flagged for a closer look

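The strain difference depended on the tissue for 6 of the 7 members, by limma's F test of the interaction over all arrays, which 72.5% of all genes passed. The adjusted p was 8.04e-51 for Scn2b, 6.21e-31 for Scn4b, 6.81e-07 for Scn7a, 9.42e-05 for Scn3b, 0.000298 for Scn8a and 0.00159 for Scn3a. Scn2b differed by 6.19 log2 units in brain and by at most 0.37 elsewhere on the same probe set. Scn4b differed by 4.30 in heart with 129S2 lowest, by 0.96 in brain and 0.62 in kidney with DBA2/J lowest, and by 1.08 in lung with 129S2 lowest. On its brightest probe set Scn7a was lowest in C57BL/6J heart and highest in C57BL/6J kidney. Scn3b differed by 0.79 in lung and 0.14 in brain. Scn8a and Scn3a differed by 0.30 and 0.25 in brain.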

How the results depend on the processing

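Over the 42 combinations of member and tissue, 256 of 273 results under other settings and 713 of 756 with 1 array left out kept direction and side of the threshold, among them every one for Scn2b in brain, Scn4b in brain, heart and kidney, and Scn3b in lung. For Scn4b, with 1 probe set, the median of a gene's probe sets could not test the choice of probe set. For Scn2b in brain it could not either, since it fell on a bright probe set in the high strains and on a dim one in 129S2 and AKR/J. On the Scn2b probe set that was bright in all strains, the means of these groups were only 0.0056 log2 units apart. The fit over all arrays called 2 members in brain (2685 genes in all, against 4203), 4 in heart (8003 genes, against 3824), 1 in liver and 0 in testis. On the median of a gene's probe sets 1 member passed in heart and 0 in testis, and with an intensity trend and robust prior 1 passed in liver. With 1 array left out, members passing ranged from 0 to 2 in liver, 1 to 4 in lung and 0 to 1 in testis. In lung 1 was left without C57BL/6J 4, 129S2 3 or C3HeB/FeJ 1. In liver 1 passed without C3HeB/FeJ 1, C3HeB/FeJ 2, A/J 3 or C57BL/6J 12 and 2 without AKR/J 3, and in testis 0 without DBA2/J 1, DBA2/J 2 or AKR/J 2. The cause was not tested. On the median of the probe sets, the differences reversed for Scn2b in kidney (-0.33), lung (-0.10) and testis (-0.070) and for Scn1a in testis (-0.035). With 1 array left out that of Scn4b in testis went from -0.028, without DBA2/J 3, to 0.13. Only Scn2b in testis had been called. The brain fit without 129S2 2 and AKR/J 2 was chosen after seeing the data and kept 4 members.

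Deviations of same-numbered arrays of different strains had median correlations of -0.01 to 0.07. In each tissue 6 to 10 of 18 arrays were nearest to one of their own number. Testis and kidney gave the highest medians, 0.072 and 0.058, where arrays of different numbers gave -0.014 and -0.0087. No expected count without pairing was worked out, so whether the numbers pair the strains was not settled. With the number as a replicate block, 4 members passed in brain and in lung, 2 in heart and in kidney, 1 in testis and 0 in liver, and no call changed.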
